A study of Mus musculus with 12 samples.

Results

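The genes described here copy DNA or supply its building blocks: origin licensing and helicase factors, polymerases, the sliding clamp and its loader, ligation and chromatin assembly factors, and enzymes of deoxynucleotide synthesis. The list of 45 was drawn up by function, with earlier results of these data known. Each gene is read from the probe set that names it alone and has the highest mean over the arrays. This gave values for 43 of the 45 genes, out of 22180 genes on the array. Rfc4 and Ccne2 are covered here only by probe sets shared with other genes and have no value. The study asks how acinar cells, which make the digestive enzymes of the pancreas, change their expression in metaplasia and cancer. It profiled total RNA of mouse pancreatic cells on 12 Affymetrix arrays in 4 groups of 3. Adult acinar cells and embryonic acinar cells were taken fresh after collagen digestion. The metaplasia group, acinar-to-ductal metaplasia (ADM), is a culture of 7 days in 3-dimensional collagen. It received TGF-alpha at 50 ng/ml, a growth factor that signals through the EGF receptor and with which acinar cells form duct-like structures. The tumor group holds low-passage tumor cells in standard medium. ADM and tumor cells were thus cultured, under different conditions, while adult and embryonic cells were fresh. Cell state and culture therefore cannot be told apart where cultured and fresh groups are compared, nor between ADM and tumor cells. Every sample, the tumor cells included, carries the strain label C57Bl6/J wildtype. The labels give no genotype for the tumors and no age for embryos or adults. The descriptions of all 3 tumor samples share the number 921, and the labels do not say whether they are cultures of 1 line. Nothing states that replicates came from separate animals, so p-values measure only the spread between these arrays.

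Replication is prepared in G1, when the origin recognition complex, Cdc6 and Cdt1 load the Mcm helicase onto origins. In S phase, kinases and Mcm10 turn the loaded ring into an active helicase by adding Cdc45 and the GINS complex. Polymerase alpha with primase then lays primers, polymerases epsilon and delta extend them on the clamp Pcna, and Fen1 and Lig1 join the fragments. Many of these genes are transcribed under E2F factors, which the retinoblastoma protein holds back in resting cells. Acinar cells of the adult pancreas rarely divide, whereas embryonic pancreas and tumor cultures hold dividing cells.

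Values are log2 signals, so a difference of 1 is a 2-fold change. A gene was called higher or lower where its adjusted p was under 0.05 and its log2 change at least 1, from limma with Benjamini-Hochberg adjustment over all 22180 genes. A signal of 3.62 served as the background level, set from 1390 odorant and pheromone receptor genes, whose group means lie below it in 95% of cases. Acinar markers were above it for 13 of 13 genes in adult, embryonic and ADM cells and for 8 of 13 in tumor cells, where Cpb1, Cel, Amy2b, Ptf1a and Nr5a2 were at background. Their summed linear signal was 60900 to 62700 on adult, 40400 to 48200 on embryonic, 15300 to 20900 on ADM and 170 to 232 on tumor arrays. Fibroblast and stellate markers, 12 genes, summed to 1020 to 1040 on adult, 6850 to 11000 on embryonic, 2850 to 6880 on ADM and 166 to 213 on tumor arrays. All 12 were above background in the first 3 groups and 8 of 12 were not in tumor cells. Immune markers, 11 genes, summed to 375 to 404, 1900 to 2830, 883 to 1410 and 802 to 1130 in the same order of groups, with 8, 9, 5 and 3 above background. Endothelial markers, 8 genes, summed to 438 to 516, 2040 to 2160, 371 to 497 and 84.5 to 93.3, and endocrine markers, 9 genes, to 1960 to 2860, 8620 to 10600, 870 to 1690 and 168 to 281. Mesothelial markers, 5 genes, summed to 87.5 to 108, 580 to 1060, 1350 to 1680 and 1370 to 1650, with 4, 5, 3 and 4 above background. The high ADM and tumor sums came from 1 gene. Against embryonic cells, 4 of the 5 were called lower and 1 higher in ADM, and the same counts held in tumor cells. The sums of these markers differed between the groups, and their part in the results was not tested. In bulk RNA, a change in the share of dividing cells and a change in RNA per cell cannot be told apart. Tumor replicate 1 stood apart: it was the lowest of the tumor arrays for 42 of the 43 replication genes, against 37.0% of all genes. Its median distance from the mean of the other tumor arrays was -0.82. Counts and medians of the replication genes in tumor comparisons are therefore given with and without it, and those of other lists with it only. As it was singled out for low values of these genes, leaving it out raises their tumor means by construction, and that direction is not a result.

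Every replication gene had its highest group mean in tumor cells and its lowest in adult acinar cells, an order of extremes that 15.6% of all genes share. The middle ranks were split. In 34 genes the embryonic mean was above the ADM mean, and in 9 (Orc1, Cdc6, Mcm7, Gins1, Gins4, Pole, Rfc2, Fen1 and Ccne1) the ADM mean was above the embryonic mean. Against adult cells, 32 of the 43 genes were called higher in ADM, where 12.5% of all genes were called higher and 4.22% lower. Their log2 changes over all 43 ran from 0.02 to 4.01 with a median of 1.38, beside -0.11 over all genes. In embryonic cells 36 of the 43 were called higher (10.0% of all genes higher, 2.61% lower), with a median of 1.48 and a range of 0.15 to 4.10 apart from Lig1. In tumor cells 42 of the 43 were called higher (14.0% of all genes higher, 5.96% lower), with a median of 2.73 and a range of 0.43 to 4.57 apart from Lig1. Lig1 is kept out of the upper ends because its adult mean lay under background, so that its folds are only bounded. Without tumor replicate 1 the count was 42 too and the median 2.95. No replication gene was called lower in any of these 3 comparisons, which share their adult arrays.

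**Figure D1:**
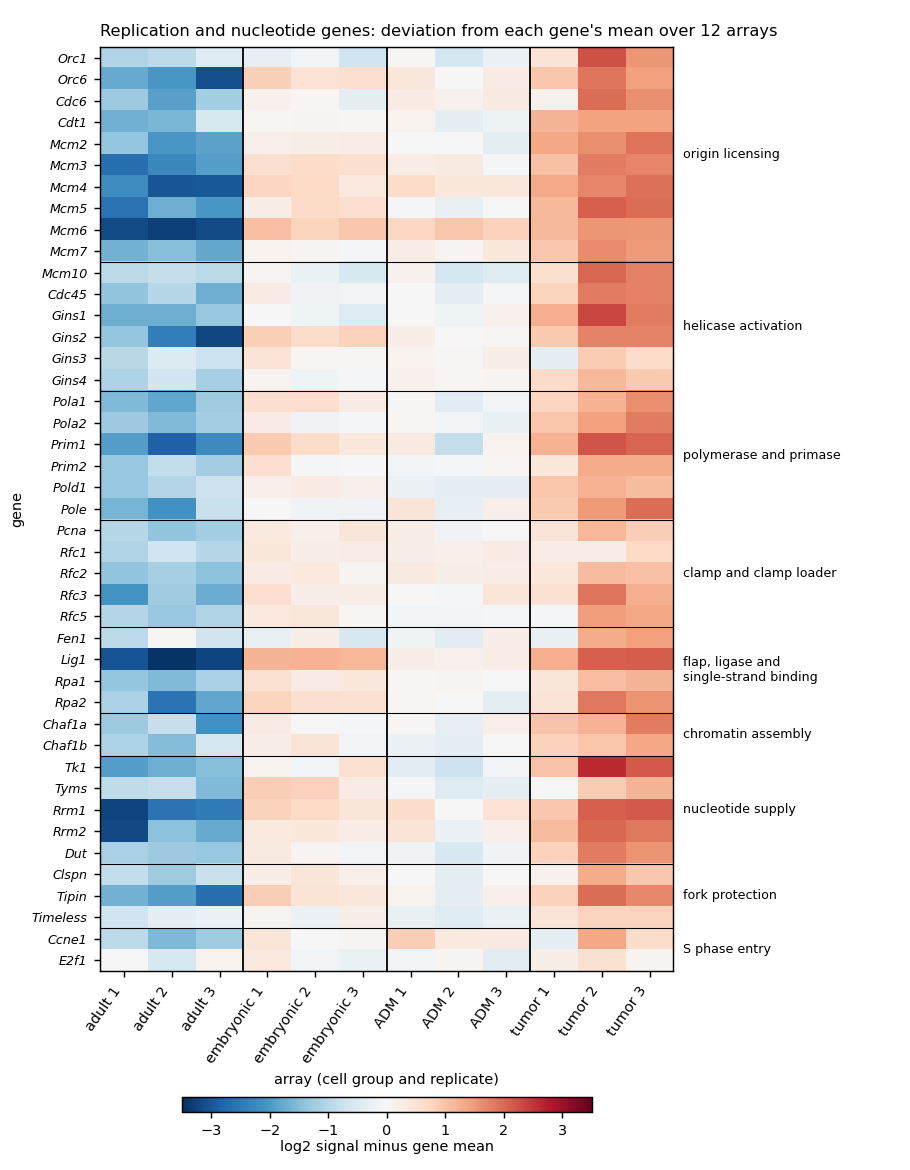
Heat map of 43 replication genes (rows, ordered by role) on the 12 arrays (columns, 3 per group). Colour gives the log2 signal minus the mean of that gene over all arrays. For most genes adult columns lie below the gene mean and tumor columns above it, and the first tumor column is paler than the other tumor columns. E2f1 and Fen1 each have an adult column above the gene mean. Fen1, Ccne1, Gins3 and Rfc5 have the first tumor column below it.

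The scale of the arrays bears on the counts against adult cells. The median of all probe sets was 3.66 to 3.72 on adult arrays, 3.53 to 3.57 on embryonic, 3.48 to 3.51 on ADM and 3.48 to 3.53 on tumor arrays. Of all calls in ADM against adult, 74.7% were in the higher direction, and 54.1%, 56.3% and 43.5% after quantile normalization, cyclic loess and centring on housekeeping genes. In embryonic against adult the share was 79.3%, and 57.3%, 65.5% and 54.9% under those scalings. In tumor against adult it was 70.2%, and 53.6%, 50.0% and 43.5%. The 12 housekeeping genes themselves changed by -0.48 to 1.71 in ADM, -0.25 to 0.97 in embryonic and -0.32 to 1.84 in tumor cells against adult. Of these 12, 1, 0 and 2 were called higher. Centring on housekeeping genes moved the all-gene medians to -0.47, -0.35 and -0.46 in the 3 comparisons. The replication genes' medians then stood at 1.03, 1.22 and 2.36; this centring shifts all genes of an array alike, so their distance from the all-gene median is fixed. That distance was 1.49, 1.57 and 2.82 as deposited and 0.94, 1.16 and 2.20 after cyclic loess. Under 1 or more of these scalings 12 genes lost their call in ADM against adult: Cdt1, Cdc45, Gins4, Pola1, Pola2, Prim2, Pcna, Rfc1, Rfc5, Rpa1, Chaf1a and Tk1. Of these, Cdt1 lost it also without adult replicate 1, Gins4 without adult replicate 3 and Rfc5 without adult replicate 2. In embryonic against adult Prim2, Pold1, Rfc1, Rfc5, Chaf1b and Clspn lost theirs under a scaling.

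The loading genes, which place the helicase on origins, included several of the largest changes. Of the 10 measured, 9 were called higher in ADM, 9 in embryonic and 10 in tumor cells, with median log2 changes of 1.95, 2.30 and 3.54 against adult. Mcm6, a subunit of the helicase ring, read 4.32, 4.18 and 4.31 on adult, 8.49, 8.23 and 8.39 on embryonic, 8.17, 8.42 and 8.24 on ADM and 8.56, 8.99 and 8.96 on tumor arrays. Its adult arrays lay far below the rest, and the change was 4.01 ± 0.15 (SE) in ADM, 4.10 ± 0.15 in embryonic and 4.57 ± 0.15 in tumor cells, or 16.1-, 17.1- and 23.7-fold. The Mcm6 difference of tumor minus ADM was 0.56 ± 0.15, which had an adjusted p of 0.0254 and missed the fold limit. Mcm4, another ring subunit, read 4.90, 4.11 and 4.14 on adult, 7.85, 7.79 and 7.45 on embryonic, 7.74, 7.46 and 7.46 on ADM and 8.42, 8.81 and 9.01 on tumor arrays. Mcm3 read 3.88, 4.24 and 4.58 on adult, 7.06, 7.15 and 7.06 on embryonic, 6.78, 6.81 and 6.48 on ADM and 7.54, 8.30 and 8.21 on tumor arrays. Both rose in all 3 groups against adult, Mcm4 by 3.17, 3.31 and 4.36 and Mcm3 by 2.46, 2.86 and 3.78 on the log2 scale (ADM, embryonic, tumor).

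The other ring subunits were called higher in all 3 groups as well. Mcm5 read 3.32, 4.18 and 3.86 on adult, 6.11, 6.57 and 6.50 on embryonic, 5.85, 5.65 and 5.88 on ADM and 7.05, 7.98 and 7.87 on tumor arrays. Its embryonic arrays lay above every ADM array, though the ADM minus embryonic difference of -0.60 ± 0.26 was not called (adjusted p = 0.152). Mcm2 read 5.47, 4.79 and 4.96 on adult, 7.01, 7.07 and 7.09 on embryonic, 6.81, 6.84 and 6.52 on ADM and 8.18, 8.45 and 8.72 on tumor arrays. Mcm7 read 4.47, 4.64 and 4.34 on adult, 6.27, 6.22 and 6.08 on embryonic, 6.41, 6.23 and 6.50 on ADM and 7.08, 7.78 and 7.63 on tumor arrays. Tumor arrays of Mcm2 and Mcm7 lay above all others, and their tumor changes against adult were 3.38 ± 0.19 and 3.01 ± 0.18.

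Factors that load the ring differed among themselves. Orc1, the largest subunit of the origin recognition complex, read 3.61, 3.73 and 4.21 on adult, 4.38, 4.57 and 3.95 on embryonic, 4.71, 4.05 and 4.44 on ADM and 5.13, 6.87 and 6.21 on tumor arrays. Its ADM and embryonic arrays overlapped the adult ones, with changes of 0.55 ± 0.35 and 0.45 ± 0.35 that were not called, and only the tumor change of 2.22 ± 0.35 passed (adjusted p = 0.000205). Orc6, a smaller subunit of the same complex, read 5.77, 5.51 and 4.46 on adult, 8.38, 8.05 and 8.12 on embryonic, 7.94, 7.55 and 7.84 on ADM and 8.48, 9.41 and 8.98 on tumor arrays. Its adult arrays spread over more than a log2 unit and still lay below all others, with a change of 2.53 ± 0.30 in ADM. Cdc6, the ATPase that brings the ring to origins, read 4.44, 3.81 and 4.53 on adult, 5.85, 5.77 and 5.36 on embryonic, 6.0, 5.87 and 6.04 on ADM and 5.87, 7.67 and 7.34 on tumor arrays. The lowest ADM array of Cdc6, 5.87, lay just above the highest embryonic one, 5.85, and the difference was not called. It was the 1 gene of the set with ADM arrays wholly above embryonic ones, against 20.1% of all genes. Tumor replicate 1 of Cdc6 fell among the ADM arrays. Cdt1, its loading partner, read 4.30, 4.37 and 5.40 on adult, 6.05, 6.06 and 6.01 on embryonic, 6.11, 5.66 and 5.80 on ADM and 7.17, 7.39 and 7.37 on tumor arrays. The Cdt1 change in ADM, 1.17 ± 0.24, was smaller than in tumor cells, 2.62 ± 0.24, and the difference between these groups, 1.45 ± 0.24, was called (adjusted p = 0.00108).

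Promoter sequence is shown for the genes of the set that carry E2F-type words ahead of their start, since these are the letters by which the factors named above are usually recognised. RefSeq windows of GRCm38.p6, from 250 bases before to 50 after a listed start, were found for 35 of the 43 genes. A single window per gene was used. It was the window at the outer start of the gene for 19827 of the 27025 genes and the first listed window for the others. The words searched on both strands were TTTCGCGC, TTTGGCGC, TTTCCCGC and TTTGCCGC, which can overlap when they stand head to head. They occurred in 12 of the 35 windows (34.3%), against 2.31% of the 27025 genes with a window: Mcm3, Mcm6, Orc1, Clspn, Mcm7, Rfc3, Pold1, Mcm5, Gins3, Cdt1, Cdc6 and Pola1. In 8 of these the word lies before the start. The stretches run from up to 30 bases before the first word to up to 30 after the last, 5′ to 3′ on the gene's strand, with the words in capitals.
Mcm6: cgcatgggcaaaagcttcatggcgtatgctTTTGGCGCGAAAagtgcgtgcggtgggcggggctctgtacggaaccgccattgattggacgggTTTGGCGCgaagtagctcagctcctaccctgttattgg
Orc1: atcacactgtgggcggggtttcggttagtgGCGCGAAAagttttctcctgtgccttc
Mcm7: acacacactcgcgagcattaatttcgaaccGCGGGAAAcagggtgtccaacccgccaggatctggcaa
Rfc3: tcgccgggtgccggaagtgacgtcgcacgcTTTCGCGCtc
Mcm5: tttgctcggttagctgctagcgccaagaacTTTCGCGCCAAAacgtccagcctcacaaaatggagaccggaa
Gins3: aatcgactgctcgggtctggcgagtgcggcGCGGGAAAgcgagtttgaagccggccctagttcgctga
Cdc6: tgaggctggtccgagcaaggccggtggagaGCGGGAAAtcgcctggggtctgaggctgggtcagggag
Pola1: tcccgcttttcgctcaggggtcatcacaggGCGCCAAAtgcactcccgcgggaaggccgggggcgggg
They lie at chr1:128359715-128359845 (minus strand), chr4:108579397-108579453 (plus), chr5:138172011-138172078 (minus), chr5:151651209-151651248 (minus), chr8:75109326-75109397 (plus), chr8:95633488-95633555 (plus), chr11:98907983-98908050 (plus) and chrX:93632256-93632323 (minus). Mcm6 and Mcm5 hold words on opposite strands that run into each other, and Mcm6 has a further one downstream. The median change in ADM against adult was 1.54 for the 12 genes with a word and 1.25 for the other 23 with a window. In embryonic cells these medians were 1.56 and 1.48, and in tumor cells 2.72 and 2.65. Mcm6, with a change of 4.01 ± 0.15 in ADM, and Orc1, not called there, both hold such words. CCAAT, the word bound by the factor NF-Y, was found on either strand in 21 of 35 windows (60%) and in 38.0% of all genes. TTTGAA or TTCGAA, words of the cell cycle homology region of late cell cycle genes, were found in 6 of 35 (17.1%) and in 19.5% of all genes. A word in a window is a description and not a measured site.

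Genes that switch the loaded helicase on were all called in tumor cells and in part in ADM and embryonic cells. Of 6 measured, 4 were called higher in ADM, 3 in embryonic and 6 in tumor cells, with medians of 1.16, 1.16 and 2.59. Gins2, a GINS subunit, read 5.94, 4.86 and 4.09 on adult, 8.13, 7.94 and 8.09 on embryonic, 7.53, 7.29 and 7.32 on ADM and 8.20, 9.03 and 9.02 on tumor arrays. Its adult arrays ranged widely below all others, and its change of 3.09 ± 0.36 was the largest of the 6 genes in embryonic cells. Gins1, a partner in that complex, read 3.85, 3.85 and 4.23 on adult, 5.55, 5.41 and 5.13 on embryonic, 5.56, 5.41 and 5.72 on ADM and 6.83, 7.91 and 7.38 on tumor arrays. Embryonic and ADM arrays of Gins1 overlapped and tumor arrays lay apart, 2.01 ± 0.24 above the embryonic mean (adjusted p = 2.48e-05). Cdc45, which joins ring and GINS into the active helicase, read 4.28, 4.68 and 3.95 on adult, 5.96, 5.55 and 5.58 on embryonic, 5.68, 5.34 and 5.63 on ADM and 6.46, 7.50 and 7.42 on tumor arrays. Mcm10, needed for activation, read 3.93, 4.03 and 3.92 on adult, 4.98, 4.64 and 4.31 on embryonic, 5.02, 4.27 and 4.41 on ADM and 5.44, 6.88 and 6.65 on tumor arrays. Mcm10 was not called in ADM (0.61 ± 0.32) or embryonic cells (0.68 ± 0.32) and rose by 2.36 in tumor cells. Gins3 read 3.59, 4.09 and 3.80 on adult, 5.03, 4.63 and 4.60 on embryonic, 4.68, 4.61 and 4.76 on ADM and 4.24, 5.45 and 5.20 on tumor arrays. It was not called in ADM (0.86 ± 0.26) or embryonic cells (0.93 ± 0.26), though the latter was called without embryonic replicate 3 or adult replicate 2. Here tumor replicate 1 lay below every ADM and embryonic array, and the tumor change of 1.14 ± 0.26 lost its call after cyclic loess, after housekeeping centring and without tumor replicate 2. Gins4 rose by 1.07 ± 0.17 in ADM and 1.87 ± 0.17 in tumor cells and fell just short of the fold limit in embryonic cells (0.92 ± 0.17), which it passed without adult replicate 2.

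Polymerase and primase genes were called higher in 5 of 6 cases in ADM, 6 of 6 in embryonic and 6 of 6 in tumor cells (medians 1.31, 1.40 and 2.74). Prim1, the catalytic primase subunit, read 4.17, 3.27 and 3.86 on adult, 7.00, 6.74 and 6.47 on embryonic, 6.42, 5.25 and 6.23 on ADM and 7.30, 8.30 and 8.14 on tumor arrays. It had the largest change of these 6 genes, 2.20 ± 0.34 in ADM and 4.15 ± 0.34 in tumor cells, and 1 ADM array lay about a log2 unit below the other ADM arrays. Prim2, its partner, read 3.85, 4.31 and 3.94 on adult, 5.74, 5.09 and 5.19 on embryonic, 5.08, 5.09 and 5.22 on ADM and 5.53, 6.46 and 6.47 on tumor arrays. Pola1, the catalytic subunit of polymerase alpha, read 3.88, 3.61 and 4.19 on adult, 5.98, 6.01 and 5.70 on embryonic, 5.45, 5.06 and 5.32 on ADM and 6.18, 6.64 and 7.05 on tumor arrays. Pola2, its accessory subunit, read 4.57, 4.29 and 4.62 on adult, 6.12, 5.71 and 5.78 on embryonic, 5.91, 5.73 and 5.58 on ADM and 6.82, 7.28 and 7.65 on tumor arrays. Every tumor array of Pola1 and Pola2 lay above every embryonic array, while Prim2 tumor replicate 1 fell among the embryonic values. Pold1, the catalytic subunit of polymerase delta, read 4.29, 4.57 and 4.88 on adult, 5.79, 5.88 and 5.78 on embryonic, 5.41, 5.26 and 5.30 on ADM and 6.57, 6.83 and 6.70 on tumor arrays. Its ADM change of 0.74 ± 0.16 was not called, its embryonic change of 1.24 ± 0.16 was, and the ADM minus embryonic difference was -0.49 ± 0.16 (adjusted p = 0.0493, under the fold limit). Pole, the catalytic subunit of polymerase epsilon, read 3.59, 3.09 and 4.43 on adult, 5.23, 5.09 and 5.08 on embryonic, 5.66, 4.92 and 5.37 on ADM and 6.11, 6.70 and 7.17 on tumor arrays. A second Pole probe set lay near background, and with the mean of both the Pole calls in ADM and embryonic against adult and in tumor against ADM and embryonic were lost.

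The clamp and its loader were called higher in all 5 measured genes in ADM, embryonic and tumor cells, with medians of 1.24, 1.51 and 2.06. Pcna, the clamp, rose by 1.24 ± 0.19 in ADM, 1.51 ± 0.19 in embryonic and 2.01 ± 0.19 in tumor cells, and its signal over the 12 arrays ran from 8.30 to 10.85. Rfc3, a loader subunit, read 3.38, 4.22 and 3.72 on adult, 6.05, 5.70 and 5.67 on embryonic, 5.48, 5.41 and 5.90 on ADM and 5.99, 7.34 and 6.74 on tumor arrays. Rfc5 read 5.41, 5.09 and 5.38 on adult, 6.78, 6.83 and 6.50 on embryonic, 6.34, 6.32 and 6.38 on ADM and 6.39, 7.89 and 7.79 on tumor arrays. Rfc2 read 4.28, 4.50 and 4.21 on adult, 5.95, 6.0 and 5.75 on embryonic, 5.97, 5.85 and 5.91 on ADM and 6.02, 6.77 and 6.67 on tumor arrays. These 3 loader genes had tumor replicate 1 close to the ADM and embryonic arrays and the other tumor arrays clearly above. Rfc1, the large subunit, read 6.08, 6.43 and 6.12 on adult, 7.52, 7.36 and 7.38 on embryonic, 7.33, 7.31 and 7.41 on ADM and 7.38, 7.40 and 7.83 on tumor arrays. The Rfc1 means of ADM, embryonic and tumor cells lay within 0.19 of each other, and no pair of these groups was called different. Its tumor change against adult, 1.33 ± 0.16, lost its call under each of the 3 scalings.

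**Figure D2:**
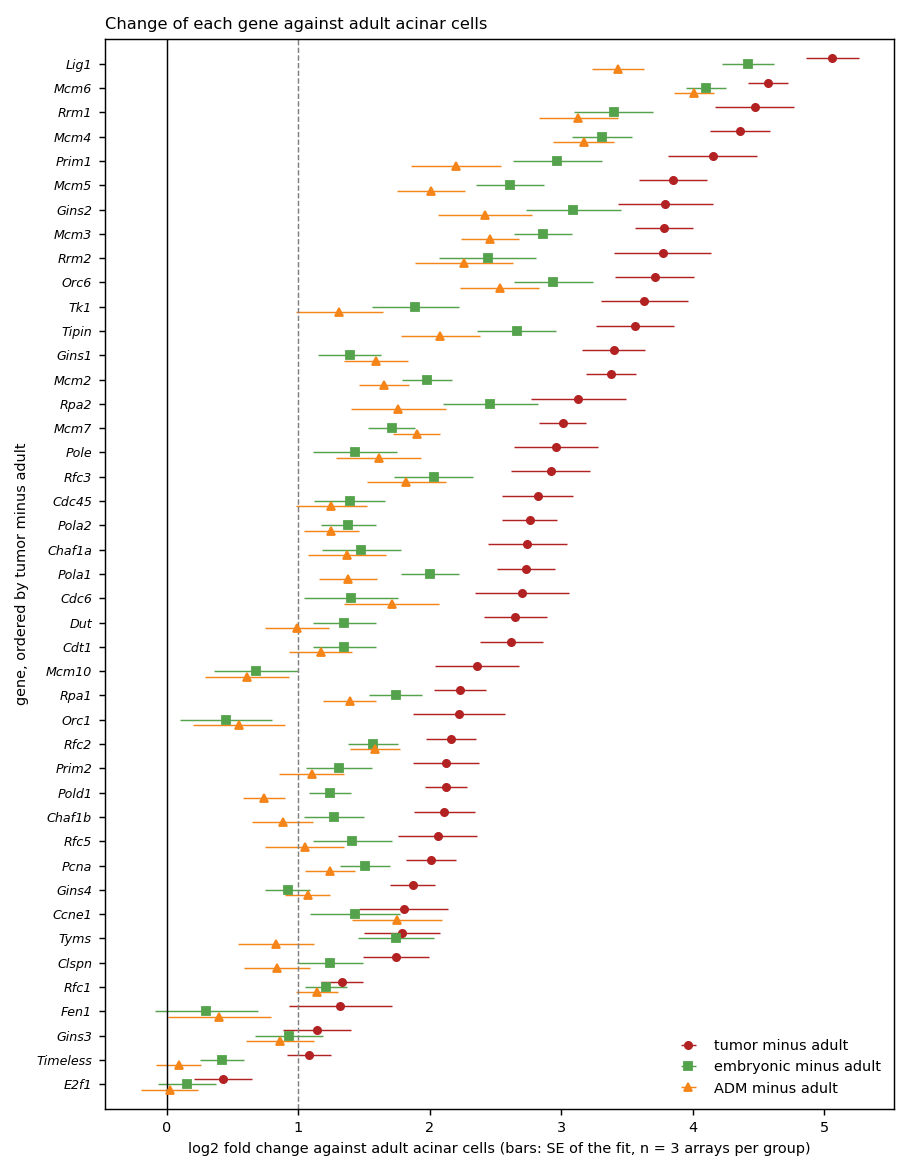
Log2 change against adult acinar cells (horizontal axis) with its standard error (bars) for each of 43 replication genes (vertical axis, ordered by the tumor change) in ADM, embryonic and tumor cells, 3 arrays per group. The dashed line marks a log2 change of 1. Tumor points lie farthest right for every gene, the Lig1 points are fitted against an adult mean under background and give no exact fold, and E2f1 stays below 1 in every group.

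Of the 4 ligation, flap and single-strand binding genes, 3 were called higher in ADM, 3 in embryonic and 4 in tumor cells. Lig1, the ligase that seals fragments of the lagging strand, read 3.70, 3.28 and 3.51 on adult, 7.92, 7.93 and 7.90 on embryonic, 6.93, 6.87 and 6.99 on ADM and 8.01, 8.81 and 8.85 on tumor arrays. The adult mean of 3.50 lay under background, so the fold changes are lower bounds: at least 9.89-fold higher in ADM, 19.6-fold in embryonic and 30.6-fold in tumor cells. ADM arrays of Lig1 lay about a log2 unit below all embryonic arrays, and the fitted difference of -0.99 ± 0.20 (95% interval -1.43 to -0.54) had an adjusted p of 0.0038 but missed the fold limit. Rpa2, a subunit of the single-strand binding protein, read 4.84, 3.36 and 4.11 on adult, 6.72, 6.50 and 6.46 on embryonic, 6.02, 5.95 and 5.61 on ADM and 6.41, 7.78 and 7.51 on tumor arrays. Rpa1, its large subunit, read 5.29, 5.11 and 5.52 on adult, 7.19, 6.93 and 7.02 on embryonic, 6.71, 6.74 and 6.63 on ADM and 7.06, 7.73 and 7.83 on tumor arrays. In both, embryonic arrays lay above all ADM arrays, by -0.70 ± 0.36 and -0.35 ± 0.20 as ADM minus embryonic, neither called. Fen1, the flap endonuclease, read 3.85, 4.80 and 4.10 on adult, 4.50, 4.95 and 4.19 on embryonic, 4.60, 4.37 and 4.99 on ADM and 4.49, 6.05 and 6.18 on tumor arrays. All 4 groups of Fen1 overlapped, with changes of 0.40 ± 0.39 in ADM and 0.30 ± 0.39 in embryonic cells that were not called, and its tumor change of 1.32 ± 0.39 lost its call under cyclic loess, under housekeeping centring and without any of tumor replicates 2 and 3 and adult replicates 1 and 3.

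Chaf1a and Chaf1b, subunits of the chromatin assembly factor that deposits histones behind the fork, rose in embryonic and tumor cells. Chaf1a read 4.17, 4.63 and 3.31 on adult, 5.73, 5.42 and 5.40 on embryonic, 5.48, 5.14 and 5.60 on ADM and 6.43, 6.65 and 7.25 on tumor arrays. Chaf1b read 4.45, 4.01 and 4.90 on adult, 5.76, 5.99 and 5.41 on embryonic, 5.31, 5.18 and 5.51 on ADM and 6.32, 6.48 and 6.88 on tumor arrays. In ADM, Chaf1a was called (1.37 ± 0.30, adjusted p = 0.00271) and Chaf1b was not (0.88 ± 0.23), though it was without adult replicate 3. Their tumor arrays lay above all arrays of every other group.

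Deoxynucleotide enzymes rose in 3 of 5 cases in ADM and in 5 of 5 in embryonic and in tumor cells (medians 1.31, 1.89 and 3.63). Rrm1, the large subunit of ribonucleotide reductase, read 4.09, 4.73 and 4.85 on adult, 8.11, 8.01 and 7.74 on embryonic, 7.92, 7.33 and 7.80 on ADM and 8.24, 9.39 and 9.46 on tumor arrays. Rrm2, its small subunit whose supply peaks in S phase, read 5.17, 6.91 and 6.59 on adult, 8.67, 8.72 and 8.60 on embryonic, 8.79, 8.14 and 8.53 on ADM and 9.44, 10.35 and 10.19 on tumor arrays. Rrm1 rose by 3.13 ± 0.30 in ADM and 4.47 ± 0.30 in tumor cells, and Rrm2 by 2.26 ± 0.37 and 3.77 ± 0.37. Tk1, thymidine kinase of the salvage route, read 4.73, 4.93 and 5.15 on adult, 6.77, 6.55 and 7.17 on embryonic, 6.29, 5.91 and 6.55 on ADM and 7.64, 9.26 and 8.80 on tumor arrays. The tumor minus ADM difference of Tk1, 2.32 ± 0.33 or 4.98-fold (adjusted p = 0.000303), was the largest of all 43 genes. Tyms, thymidylate synthase of the de novo route, read 5.34, 5.42 and 4.69 on adult, 7.11, 7.05 and 6.52 on embryonic, 6.21, 5.79 and 5.93 on ADM and 6.26, 7.12 and 7.44 on tumor arrays. Tyms had an ADM change of 0.83 ± 0.29 that was not called, and its embryonic and tumor means were 0.05 apart. Its ADM minus embryonic difference was -0.92 ± 0.29 (95% interval -1.54 to -0.29, adjusted p = 0.0441). Dut, which removes dUTP, read 6.88, 6.74 and 6.71 on adult, 8.35, 8.12 and 7.92 on embryonic, 7.91, 7.48 and 7.91 on ADM and 8.82, 9.85 and 9.60 on tumor arrays. Dut rose by 1.35 ± 0.24 in embryonic and 2.65 ± 0.24 in tumor cells and missed the fold limit in ADM (0.99 ± 0.24), which it passed without ADM replicate 2 or adult replicate 1. A second Dut probe set near background changed by -0.35, -0.35 and -0.12 in ADM, embryonic and tumor cells, and with the mean of both probe sets the Dut calls in embryonic against adult and in tumor against ADM and embryonic were lost.

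Fork protection genes were called in 1 of 3 cases in ADM, 2 in embryonic and 3 in tumor cells. Tipin, partner of Timeless at the fork, read 5.24, 4.96 and 4.26 on adult, 7.77, 7.38 and 7.30 on embryonic, 7.03, 6.59 and 7.08 on ADM and 7.71, 8.86 and 8.58 on tumor arrays. It rose by 2.08 ± 0.30, 2.66 ± 0.30 and 3.56 ± 0.30. Clspn, the adaptor that passes the stress signal to Chek1, read 4.01, 3.63 and 4.10 on adult, 5.11, 5.29 and 5.05 on embryonic, 4.86, 4.56 and 4.85 on ADM and 5.01, 6.16 and 5.80 on tumor arrays. Its change was 0.84 ± 0.25 in ADM, which was not called, 1.24 ± 0.25 in embryonic and 1.74 ± 0.25 in tumor cells. Timeless read 3.34, 3.72 and 3.83 on adult, 4.11, 3.81 and 4.22 on embryonic, 3.78, 3.60 and 3.79 on ADM and 4.49, 4.82 and 4.82 on tumor arrays. ADM and embryonic arrays of Timeless overlapped the adult arrays near background, and its tumor change of 1.08 ± 0.17 lost its call after housekeeping centring and without adult replicate 1.

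The regulators of entry into S phase parted. Ccne1, the cyclin that with Cdk2 starts S phase, read 4.50, 3.83 and 4.15 on adult, 5.84, 5.43 and 5.50 on embryonic, 6.27, 5.75 and 5.72 on ADM and 5.07, 6.75 and 6.06 on tumor arrays. Ccne1 rose by 1.75 ± 0.34 in ADM, 1.43 ± 0.34 in embryonic and 1.80 ± 0.34 in tumor cells, and tumor replicate 1 lay below all ADM and embryonic arrays. E2f1, the transcription factor of many genes above, read 4.42, 3.87 and 4.56 on adult, 4.78, 4.33 and 4.19 on embryonic, 4.34, 4.53 and 4.04 on ADM and 4.64, 4.96 and 4.54 on tumor arrays. E2f1 was called in no comparison: its changes against adult were 0.02 ± 0.22 in ADM, 0.15 ± 0.22 in embryonic and 0.43 ± 0.22 in tumor cells (adjusted p = 0.147; 95% interval -0.05 to 0.91).

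**Figure D3:**
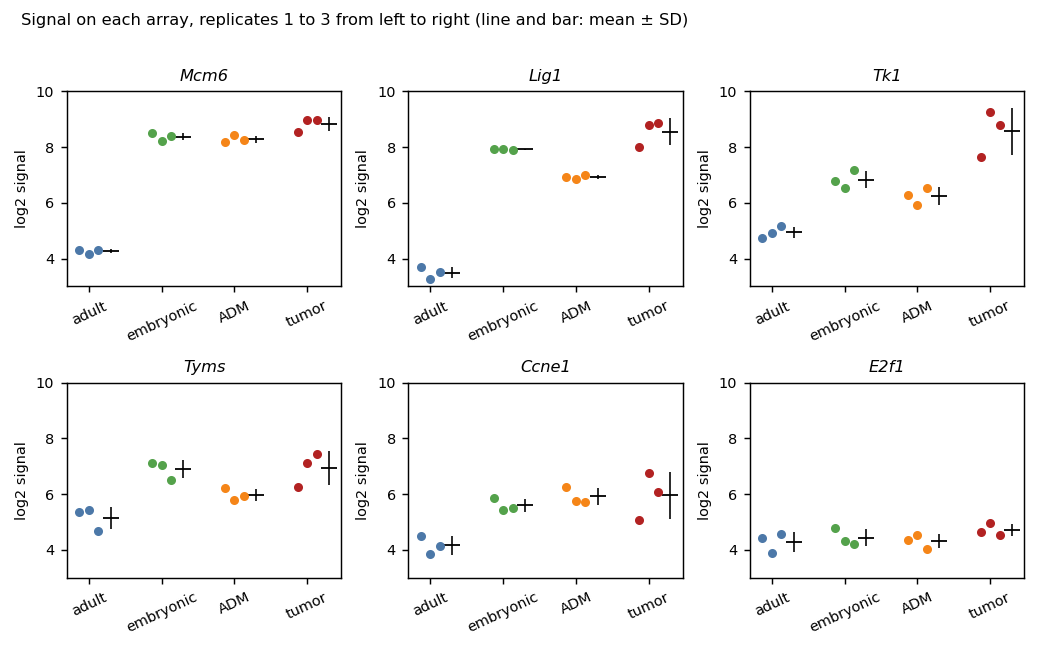
Log2 signal (vertical axis) of Mcm6, Lig1, Tk1, Tyms, Ccne1 and E2f1 on each of 12 arrays (points), by group (horizontal axis), with the mean and SD of 3 arrays. The Mcm6 means of ADM and tumor cells are 0.56 apart, Tk1 is highest in tumor cells, Tyms has similar embryonic and tumor means, and the groups of E2f1 overlap.

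ADM and embryonic cells were compared directly, as most of these genes were called higher than in adult cells in each of them. No replication gene was called in either direction, where 4.55% of all genes were called higher in ADM and 4.91% lower. The difference, ADM minus embryonic, was negative for 34 genes and positive for 9, with a median of -0.21 (0.00 over all genes) and a range of -0.99 to 0.32. Arrays did not overlap for 17 genes with ADM lower (17.5% of all genes) and for 1 with ADM higher (20.1%). An adjusted p under 0.05 without the fold limit was reached by Lig1, Tyms and Pold1, each with ADM lower. Lig1 and Tyms passed the fold limit too after quantile normalization, after cyclic loess and after housekeeping centring, Lig1 also without ADM replicate 3 and Tyms without embryonic replicate 3. Intervals stayed wide for many genes, for example -1.49 to -0.05 for Prim1.

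Tumor cells were above ADM. Of the 43 genes, 29 were called higher and none lower, where 3.28% of all genes were called higher and 5.07% lower. The median log2 difference was 1.33 (0.06 over all genes) with a range of 0.05 to 2.32. Tumor arrays lay wholly above ADM arrays for 38 genes, as for 17.7% of all genes. After Tk1, the largest differences were in Prim1 (1.95 ± 0.34) and in the helicase genes Mcm5 (1.84 ± 0.26) and Gins1 (1.81 ± 0.24). The genes not called were Cdc6, Mcm6, Gins3, Gins4, Pcna, Rfc1, Rfc2, Fen1, Rpa1, Tyms, Clspn, Timeless, Ccne1 and E2f1. Without tumor replicate 1, 35 were called (4.67% of all genes higher) with a median of 1.52, Cdc6, Fen1, Rpa1, Tyms, Clspn and Timeless being added. Without tumor replicate 2 the calls of Orc6, Mcm7, Gins2, Prim2, Rfc3, Rfc5, Rpa2 and Rrm2 were lost, and without tumor replicate 3 all of these but Mcm7, and Pole. Rfc5 also lost its call under each scaling and without each ADM array. Without ADM replicate 1 the calls of Prim2 and Rfc3 were lost, without ADM replicate 2 those of Orc6, Gins2, Pole, Rfc3 and Rrm2, and without ADM replicate 3 those of Gins2 and Rpa2. Prim2 lost its call after quantile normalization and cyclic loess, and Rpa2 after quantile normalization. Timeless gained one after either of these scalings and without ADM replicate 1 or 3.

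Tumor cells were also above embryonic cells. Here 18 of the 43 were called higher and none lower, where 6.53% of all genes were called higher and 7.80% lower, with a median difference of 0.90 (0.07 over all genes). Tumor arrays lay wholly above embryonic arrays for 30 genes, as for 22.1% of all genes. The called genes were Orc1, Cdc6, Cdt1, Mcm2, Mcm4, Mcm5, Mcm7, Mcm10, Cdc45, Gins1, Pola2, Prim1, Pole, Chaf1a, Tk1, Rrm1, Rrm2 and Dut. By role these were 7 of 10 loading genes, 3 of 6 activation genes, 3 of 6 polymerase and primase genes, 4 of 5 nucleotide enzymes and 1 of 2 chromatin assembly genes. None was called among the 5 clamp and loader genes, the 4 flap, ligase and single-strand binding genes, the 3 fork protection genes and the 2 S phase entry genes. Among these, Rfc2, Rfc3, Lig1, Tipin and Timeless had an adjusted p under 0.05 and missed only the fold limit. Gins1 (2.01 ± 0.24), Orc1 (1.77 ± 0.35) and Tk1 (1.74 ± 0.33) led. Without tumor replicate 1, 27 were called (7.80% of all genes higher) with a median of 1.16, and Gins1 stood at 2.28 ± 0.21. The added genes were Orc6, Mcm3, Gins4, Prim2, Rfc3, Rfc5, Fen1, Rpa2 and Tipin. Without tumor replicate 2 or without tumor replicate 3 Cdc6, Prim1, Rrm1 and Rrm2 lost their calls, and without replicate 3 Mcm4 did too. Without embryonic replicate 3 Cdc6, Mcm4, Prim1 and Rrm1 lost theirs, and without embryonic replicate 1 Gins4, Prim2 and Tipin gained one. Mcm4, Prim1 and Rrm1 lost their calls after quantile normalization and cyclic loess, Mcm4 and Rrm1 also after housekeeping centring, and Rrm2 after cyclic loess.

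**Figure D4:**
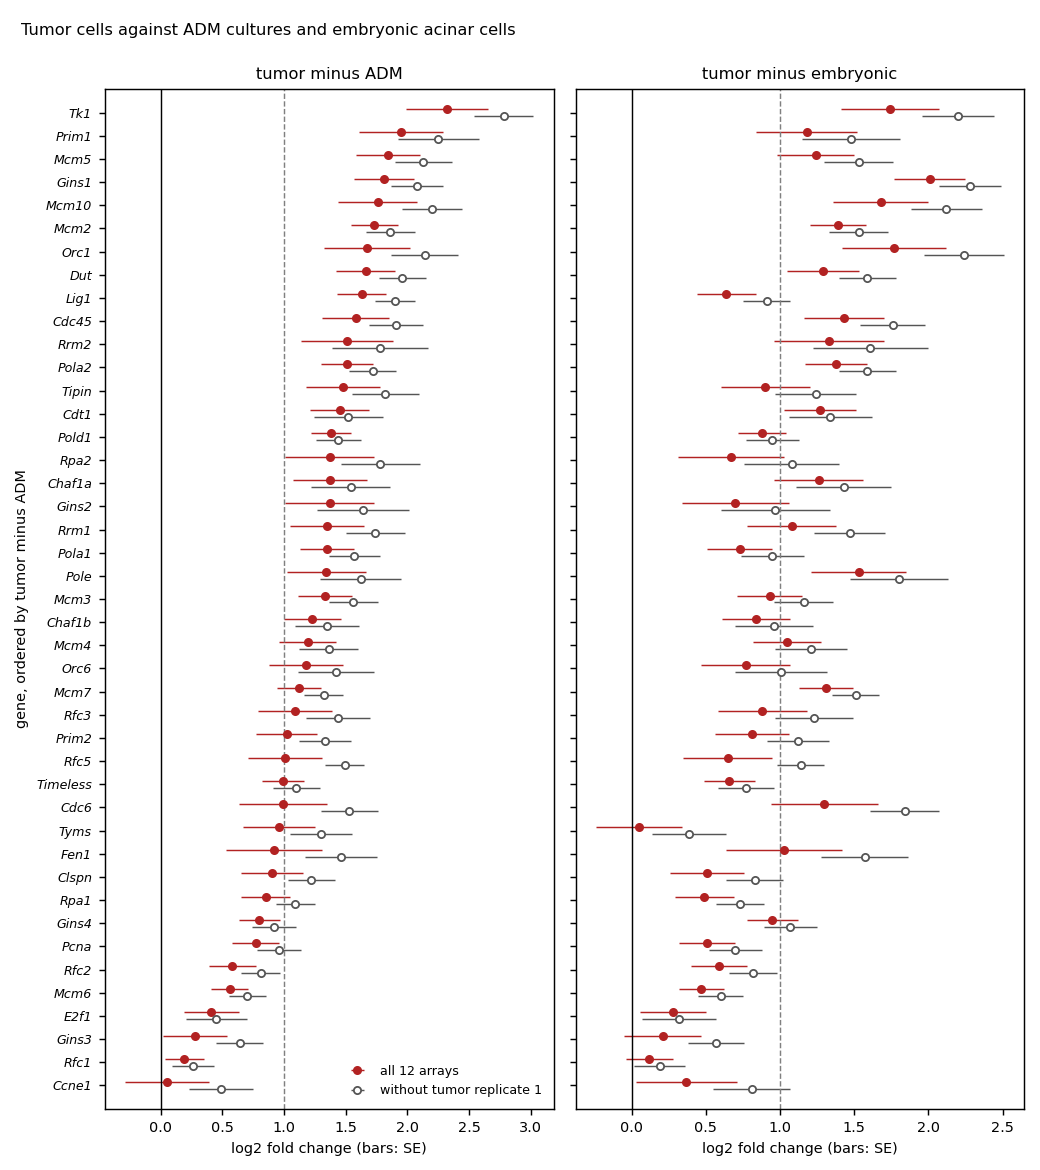
Log2 difference of tumor cells from ADM and from embryonic cells (horizontal axis) for each of 43 replication genes (vertical axis), with all 3 tumor arrays and without tumor replicate 1. Leaving it out moves the median from 1.33 to 1.52 against ADM and from 0.90 to 1.16 against embryonic cells.

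The spread among replicates of the replication genes was widest on tumor arrays. The median SD was 0.486 on tumor, 0.335 on adult, 0.191 on embryonic and 0.177 on ADM arrays, beside 0.211, 0.251, 0.176 and 0.148 over all genes. Tumor replicate 1 lay 0.11 to 1.63 below the mean of the other tumor arrays over the 43 genes, and E2f1 was the 1 gene for which it was not the lowest tumor array. It was above all adult arrays for 42 genes, above all ADM arrays for 38 and above all embryonic arrays for 30, as for 32.1%, 37.7% and 39.2% of all genes. In adult cells all 43 genes but Lig1 had a mean above background, and 32 were above it on every adult array.

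Further genes of the process were read from other lists. For scale, 12.5%, 10.0% and 14.0% of all genes were called higher in ADM, embryonic and tumor cells against adult. Of all genes, 3.28% were called higher in tumor cells than in ADM and 6.53% higher than in embryonic cells. Of 34 further replication factors, 11 were called higher and 1 lower in ADM, 14 and 0 in embryonic and 24 and 0 in tumor cells against adult. Top2a, the topoisomerase that untangles copied DNA, rose by 3.17 ± 0.29, 3.91 ± 0.29 and 4.62 ± 0.29. Dbf4, the activator of the kinase that fires origins, rose by 2.86 ± 0.23, 2.33 ± 0.23 and 3.84 ± 0.23. Pold2, the accessory subunit that pairs with Pold1, was -1.50 ± 0.21 in ADM minus embryonic (adjusted p = 0.000188), the 1 gene of this list called there. Tumor cells were above ADM in 13 of the 34 and above embryonic cells in 12, with none lower.

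Regulators of the E2F pathway other than E2f1 were called in part. Of 18 E2F, RB and S phase kinase genes, 7 were called higher in ADM, 7 in embryonic and 14 in tumor cells, with 0, 1 and 1 lower. Ccna2, the cyclin of S phase and G2, rose by 3.69 ± 0.31, 4.36 ± 0.31 and 5.41 ± 0.31. E2f8, a repressor of the E2F family, rose by 1.36 ± 0.31, 2.10 ± 0.31 and 3.70 ± 0.31. E2f3 rose in ADM by 2.31 ± 0.21. It was not called different between ADM and embryonic cells, nor lower in tumor cells than in ADM. Skp2, which marks the inhibitor p27 for breakdown, rose by 3.02 ± 0.27 in embryonic and 3.19 ± 0.27 in tumor cells. Its means were 4.20 in adult, 5.50 in ADM, 7.21 in embryonic and 7.39 in tumor cells. It was called lower in ADM than in embryonic cells (-1.71 ± 0.27, adjusted p = 0.000452). Tumor cells were above ADM in 8 of the 18 and above embryonic cells in 9.

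Enzymes of nucleotide pathways outside the set were called in part. Of 15 other deoxynucleotide and thymidylate genes, 4, 3 and 7 were called higher in ADM, embryonic and tumor cells and 1, 1 and 0 lower. Mthfd2, a mitochondrial folate enzyme, was lower in ADM (-1.25 ± 0.23) and in embryonic cells (-1.40 ± 0.23) than in adult cells. Dtymk, thymidylate kinase, rose by 1.16 ± 0.30, 1.53 ± 0.30 and 2.07 ± 0.30. Of 17 purine and pyrimidine synthesis genes, 1, 0 and 8 were called higher and 2, 0 and 0 lower. In ADM and embryonic cells the higher counts of this list lay under the all-gene shares of 12.5% and 10.0%. Atic, which closes the purine ring, rose by 1.23 ± 0.22 in ADM and 1.85 ± 0.22 in tumor cells, while Guk1, guanylate kinase, fell by 1.30 in ADM. No gene of these lists was called between ADM and embryonic cells. Of 9 checkpoint genes, 2, 3 and 6 were called higher and none lower, Chek1 by 1.52 ± 0.27 in embryonic and 2.62 ± 0.27 in tumor cells.

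Mitosis genes, which act after replication, were also lowest in adult and highest in tumor cells by their median change. Of 23 measured, all were called higher in ADM, embryonic and tumor cells against adult, with medians of 2.70, 3.01 and 4.33 beside 1.38, 1.48 and 2.73 for the replication genes. Tumor cells were above ADM in 23 of 23 (median 1.74) and above embryonic cells in 17 (median 1.25). Between ADM and embryonic cells 2 were called lower in ADM, Nusap1 (-1.39 ± 0.27) and Mki67 (-1.01 ± 0.31), with a median of -0.52. Tumor replicate 1 was the lowest tumor array for 23 of 23, by a median of 1.45 on the log2 scale.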

How the data were processed

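Per the labels' protocols, total RNA was extracted with a column kit, labelled with biotin and hybridised to Affymetrix arrays. The values used are the authors' deposited table of 41345 probe sets on 12 arrays, which holds processed signals on a log2 scale, as read from their range of 1.56 to 13.67. The background correction, the summarisation and the normalization are not given in the sources used here. Probe sets naming 1 gene (23521; 1814 name several, 16010 none) were reduced to 22180 genes by the highest mean over the arrays. limma 3.58.1 in R 4.3.3 fitted 4 group means over all arrays without a block, with empirical Bayes variances. Before that, the fit was run on simulated data with the same spread in every group. That setting does not cover the wider spread of the replication genes on tumor arrays. Groups of 3 arrays limit the precision. Values of 2 arrays of a group correlated at 0.967 to 0.991 and were never identical over the table. The replication genes and the other lists were chosen with earlier results of these data known, so no test is given for a list as a whole. All 45 genes could be named. Values on each array were given per role for up to 3 genes with the widest and the 1 with the narrowest range of group means, and for every gene called between ADM, embryonic and tumor cells. From other lists up to 4 called genes per comparison could be named. Promoter words were searched in RefSeq windows. Alternatives were other scalings, a filter on dim genes, other probe set rules, variance settings, the replicate number as a block, each pair of groups alone, other fold limits and leaving out each array.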

Additional observations from a re-analysis of the deposited data

How the results depend on the processing

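Over 258 pairs of a replication gene and a comparison, 157 were called, and 115 of these were called under every alternative at the same fold limit. Of the 101 not called, 80 were called under none. No replication gene changed direction with a call. In ADM against adult the count of 32 became 21 after cyclic loess, 23 after quantile normalization and 23 after housekeeping centring. A log2 fold limit of 2 left 11 in ADM against adult, 14 in embryonic against adult, 1 in tumor against ADM and 1 in tumor against embryonic, and no fold limit gave 30 in the last. In ADM against embryonic, 2 genes were called lower after quantile normalization, 2 after cyclic loess, 2 after housekeeping centring and 3 with no fold limit. Leaving out each array in turn gave 31 to 33 genes higher in ADM against adult, 36 to 38 in embryonic against adult, 40 to 42 in tumor against adult, 21 to 35 in tumor against ADM, 13 to 27 in tumor against embryonic and 0 to 1 lower in ADM against embryonic. Arrays with the same replicate number did not deviate together (correlations of -0.05 to 0.13), and the replicate block gave 32, 36, 42, 28, 18 and 0 genes, losing Rfc5 in tumor against ADM. With the mean of the probe sets of a gene, Pole and Dut lost calls. Signals near background, as for Lig1 and Timeless in adult cells, limit the size of a fold.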
